A study of Mus musculus with 18 samples.

Results

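The response of AT3 cells to interferon gamma (IFNγ) without an inhibitor was described from 6 of the 18 libraries of the series, namely 3 libraries of cells given DMSO and IFNγ and 3 of cells given DMSO alone. AT3 is a mouse mammary tumour cell line that the study uses as a model of triple-negative breast cancer, so every library came from 1 line. Cells of both groups were first held for 1 h in DMSO, the solvent of the inhibitors, and were then kept for 2 h with IFNγ (1 ng/mL) or without it. The other 12 libraries, of cells given A-241 or A-485, which inhibit P300/CBP, entered the filter on low counts, the scaling and the estimate of the spread between libraries. RNA was read by 3′ mRNA sequencing, in which reads fall near the end of each transcript, so that a level in CPM, the reads of a gene per 1000000 reads of the library, was not scaled to gene length. The labels call the libraries biological triplicates and the study's methods call them technical ones, so the p-values below measure the spread between libraries, which may be technical.

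IFNγ binds a receptor of IFNGR1 and IFNGR2 chains, whose kinases JAK1 and JAK2 phosphorylate transcription factors of the STAT family. STAT dimers bind GAS elements in DNA and start the transcription of regulators such as Irf1, and factors of the interferon regulatory factor (IRF) family then act at ISRE elements of genes for host defence. In tumour cells the pathway is known for the ligands of CXCR3, for peptide presentation on MHC class I and for the checkpoint ligand PD-L1, and SOCS1 closes it by inhibiting the JAK kinases.

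Promoters of genes higher with IFNγ are shown first, because the letters of both elements divide these genes into classes that are used below. Each window holds 250 bases before and 50 bases after a gene start of RefSeq on GRCm38.p6 and is written 5′ to 3′ along the gene's strand. Capitals mark matches on either strand to the ISRE core GAAANNGAA or to the GAS letters TTCNNNGAA, where N is any base. The genes are those with the largest fitted increase in their class, and a match describes the letters only. The window of Cxcl9 (chr5:92328030-92328329, minus strand) and that of Gbp2b (chr3:142594597-142594896, plus strand) held an ISRE core and no GAS match.
Cxcl9: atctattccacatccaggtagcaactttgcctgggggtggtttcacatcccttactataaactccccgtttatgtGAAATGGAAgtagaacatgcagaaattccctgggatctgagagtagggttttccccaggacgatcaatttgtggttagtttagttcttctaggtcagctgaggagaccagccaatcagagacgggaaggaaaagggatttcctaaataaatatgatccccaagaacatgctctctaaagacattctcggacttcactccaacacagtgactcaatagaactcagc
Gbp2b: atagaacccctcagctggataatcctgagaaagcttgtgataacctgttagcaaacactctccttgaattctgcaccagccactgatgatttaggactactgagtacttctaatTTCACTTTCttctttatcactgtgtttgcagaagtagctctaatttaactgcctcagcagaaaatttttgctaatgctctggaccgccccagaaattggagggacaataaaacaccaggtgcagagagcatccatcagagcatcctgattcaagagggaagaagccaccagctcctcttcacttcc

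The windows of Irf8 (chr8:120736108-120736407, plus strand) and Irf1 (chr11:53769764-53770063, plus strand) held GAS matches and no ISRE core. Irf8 had 2 GAS matches, which begin 171 and 153 bases before the gene start, and Irf1 had 1, which begins 90 bases before it.
Irf8: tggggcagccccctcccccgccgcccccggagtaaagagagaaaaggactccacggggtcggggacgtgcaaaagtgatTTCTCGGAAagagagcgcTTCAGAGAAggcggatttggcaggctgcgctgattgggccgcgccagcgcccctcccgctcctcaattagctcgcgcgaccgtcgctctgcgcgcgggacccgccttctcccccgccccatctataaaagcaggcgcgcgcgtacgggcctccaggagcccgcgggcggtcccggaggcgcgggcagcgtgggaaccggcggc
Irf1: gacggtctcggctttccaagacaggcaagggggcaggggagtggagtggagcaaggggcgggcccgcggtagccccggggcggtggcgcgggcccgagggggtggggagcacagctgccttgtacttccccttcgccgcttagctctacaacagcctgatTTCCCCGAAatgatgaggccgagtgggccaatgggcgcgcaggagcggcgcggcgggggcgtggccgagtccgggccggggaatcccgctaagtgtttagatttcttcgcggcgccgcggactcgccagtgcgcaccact

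The windows of Gm12250 (chr11:58183593-58183892, plus strand) and Tgtp1 (chr11:48992197-48992496, minus strand) held both. The RefSeq starts of these genes lie 3896 and 1926 bases from the starts of their GENCODE gene models, so the windows are those of the RefSeq starts. Among genes with neither match, Sectm1b and Ifi47 had the largest fitted increases.
Gm12250: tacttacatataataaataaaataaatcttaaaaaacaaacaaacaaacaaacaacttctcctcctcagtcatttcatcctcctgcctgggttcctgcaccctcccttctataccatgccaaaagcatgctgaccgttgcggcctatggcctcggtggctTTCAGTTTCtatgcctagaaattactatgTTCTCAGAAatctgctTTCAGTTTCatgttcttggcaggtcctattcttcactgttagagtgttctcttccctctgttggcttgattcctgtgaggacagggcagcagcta
Tgtp1: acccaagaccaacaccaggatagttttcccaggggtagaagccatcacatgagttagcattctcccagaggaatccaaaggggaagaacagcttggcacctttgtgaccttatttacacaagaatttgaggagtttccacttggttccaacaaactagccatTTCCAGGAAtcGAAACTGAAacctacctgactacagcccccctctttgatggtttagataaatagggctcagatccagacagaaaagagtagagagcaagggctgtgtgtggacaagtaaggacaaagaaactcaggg

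Library depth lay between 3417167 counts (DMSO replicate 3) and 7856830 counts (IFNγ replicate 1), at which 3 counts equal 1.04 and 0.369 CPM. DMSO replicate 3 and IFNγ replicate 2 stood apart from all other libraries of the series. Gm42418, a noncoding transcript that overlaps ribosomal RNA sequence, took 20.1% and 23.1% of their counts, against 7.11% to 16.3% in the other 16. The deviation of a library was taken from the mean of the other libraries of its group. It was largest in these 2 libraries (root mean square 1.10 and 1.13 on the log2 scale, against 0.34 to 0.77). These 2 libraries deviated together across genes (r = 0.828, a description over all genes tested), although they belong to different groups. The other pairs of a DMSO and an IFNγ library had r of -0.804 to 0.794, the highest for DMSO replicate 2 with IFNγ replicate 1. Deviations here were taken from the group mean and sum to 0 within each group, so the pairs are not independent. For the total counts, the motifs, the neighbours and several genes and lists, results are also given without these 2 libraries. Both were singled out from these same counts, and leaving them out tends to lower the spread between libraries. It also leaves 2 libraries on each side. Calls and p-values without them are therefore a description and not separate evidence. Of the markers of the cell type, Krt8 (243 to 820 counts) and Epcam (251 to 487) were present in all 6 libraries, Krt19 was at 0 counts in each, and the leukocyte markers Ptprc (0 to 9) and Adgre1 (0) were at or near 0. Of 10 leukocyte markers, 5 passed the count filter, with medians of 1.94 CPM in DMSO and 3.48 CPM with IFNγ and no call. Of 7 epithelial markers 6 passed (median 129 CPM in DMSO), and of 6 mesenchymal and fibroblast markers 2 passed (median 75.3 CPM in DMSO).

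Of 11964 genes tested, 144 (1.2%) were higher and 12 (0.1%) were lower with IFNγ at an adjusted p under 0.01 (edgeR quasi-likelihood test, Benjamini-Hochberg over all genes tested). Every one of the 144 had all IFNγ libraries above all DMSO libraries, and every one of the 12 had them below. For comparison, 4.16% of all genes tested were separated upwards and 3.69% downwards. Each count of called genes in a list below is to be read against the 1.2% and 0.1% of all genes tested. Among the increases the median on the log2 scale was 2.44, or 2.34 with 21 genes that were near 0 in DMSO set at their lower bound, and 90 of the 144 exceeded 2. The decreases were smaller, with a median of -1.11. The median of all genes tested was -0.003. Without DMSO replicate 3 and IFNγ replicate 2 the test called 196 genes higher and 50 lower, and 139 of the 144 and 11 of the 12 were among them. With the filter and the spread both taken from the 6 libraries alone, 11333 genes were tested (141 of the 144 among them), and it called 19 higher and 0 lower, where 287 and 114 genes had an unadjusted p under 0.05. Many genes named below, such as Stat2, Tap1, Jun and Ephb3, were not called in that fit. The 12 inhibitor libraries deviated less from the other libraries of their groups (root mean square 0.34 to 0.45) than the 6 compared (0.57 to 1.13). Each SE and p-value of the main fit therefore draws in part on groups with less spread.

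**Figure D1:**
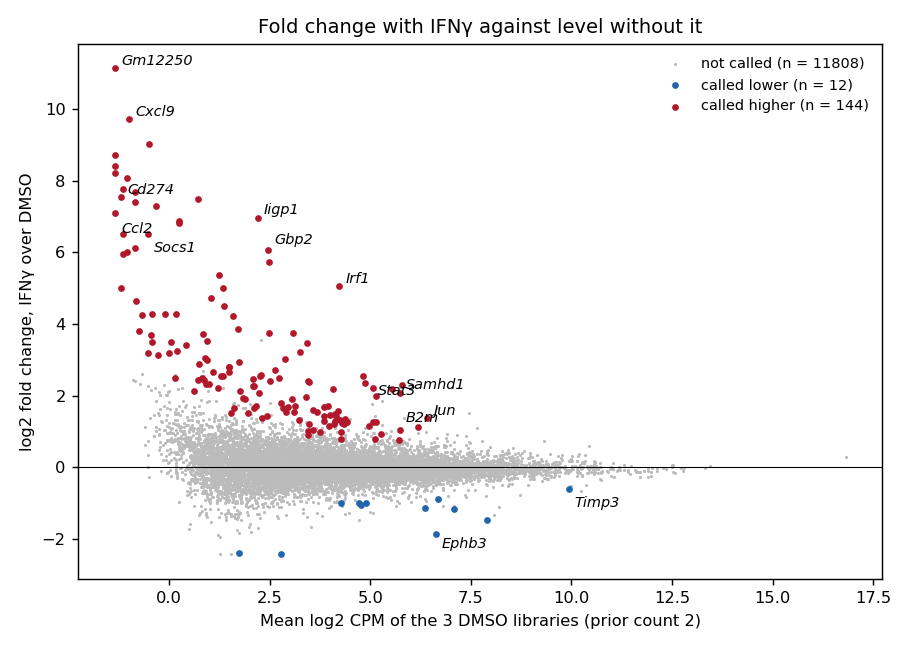
Each point is 1 of the 11964 genes tested, with its mean log2 CPM in the 3 DMSO libraries on the x axis and its log2 fold change, IFNγ over DMSO, on the y axis. The 144 genes called higher (red) reach 11.14 and crowd at low DMSO levels, while the 12 called lower (blue) lie between -2.43 and -0.63; grey genes, among them Stat3 and Ccl2, were not called.

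The 144 genes held 0.144% to 0.151% of each DMSO library and 0.748% to 0.877% of each IFNγ library. In all, they gained 6794 CPM, of which 5 genes took 29.9% and 14 genes took over 50%. The 5 were Irf1, Iigp1, Gbp2, Igtp and Gm4841, a transcription factor and 4 GTPases of interferon-inducible families. Of the 144, 136 were protein coding and 8 were of other types. Exon bases are shared with another gene tested in 30 of the 144, and since the authors let 1 read count for all genes it touches, the levels of such genes are not separate.

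Genes for the receptor chains, the JAK kinases and the STAT proteins carry the signal into the cell. Stat2, a subunit of the complex that answers type I interferon, was at 7.17, 5.05 and 6.57 CPM in the DMSO libraries and at 36.0, 40.5 and 29.4 CPM with IFNγ. The groups did not overlap, and the log2 fold change was 2.50 ± 0.23 (SE, n = 3 and 3, spread estimated over all 18 libraries, edgeR adjusted p = 2.453e-06). With the 6 libraries alone Stat2 was not called.

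The receptor chains gave no call. Ifngr1 was at 25.6 to 30.1 CPM in DMSO and at 25.3 to 34.3 CPM with IFNγ, with a log2 fold change of 0.07 ± 0.18. Ifngr2 was at 1.38 to 4.85 CPM and at 2.98 to 3.85 CPM. Both pairs of ranges overlap. Of the kinases, Jak1 had a log2 fold change of 0.43 ± 0.27, Jak2 of 0.95 ± 0.42 and Tyk2 of -0.43 ± 0.35, and none of them was called. Stat5a, Stat5b and Stat6, which serve other cytokines, had log2 fold changes of 0.23, 0.60 and 0.02, also without a call, and Stat4 was at 0 counts in all 6 libraries.

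Stat3, the main transcription factor of interleukin-6 signalling, depended on the libraries. In DMSO replicates 1, 2 and 3 it was at 49.96, 48.8 and 14.2 CPM, and with IFNγ at 174, 33.4 and 176 CPM. Both libraries that stand apart were the lowest of their group, and IFNγ replicate 2 lay below 2 of the DMSO libraries. With all libraries the log2 fold change was 1.75 ± 0.49 (edgeR adjusted p = 0.1121). Without these 2 libraries it was 1.81 ± 0.21 (edgeR adjusted p = 1.646e-05), with 2 libraries on each side. Stat3 shares exon bases with Stat5a.

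Among 15 feedback inhibitors, 14 were tested, 1 was called higher, where the share over all genes was 1.2%, and none lower, and the median log2 fold change was 0.16. Socs1, the SOCS protein that blocks JAK kinases, had 2, 4 and 0 counts in the DMSO libraries and 511, 4 and 320 counts in the IFNγ libraries, or 62.8, 1.19 and 56.0 CPM. IFNγ replicates 1 and 3 were far above every DMSO library, whereas IFNγ replicate 2 had as many counts as DMSO replicate 2 and lay above it only per depth. The log2 fold change was 6.51 ± 1.10 (edgeR adjusted p = 0.002142), and the call was lost when DMSO replicate 1 or DMSO replicate 2 was left out (the larger adjusted p was 0.02107) and with limma-voom, with or without quality weights. Without the 2 libraries that stand apart it was 6.71 ± 0.52 (edgeR adjusted p = 3.9e-08).

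Socs3 had the same form at lower counts, with 3, 19 and 4 counts in DMSO and 173, 5 and 42 with IFNγ. It was not called with all libraries (log2 fold change 2.55 ± 0.76, edgeR adjusted p = 0.1466) or without the 2 libraries that stand apart (2.88, adjusted p = 0.01086). Socs2, which acts on growth hormone signalling, was at 5.53 to 13.3 CPM in DMSO and at 18.2 to 23.96 CPM with IFNγ. Usp18, which removes ISG15 and restrains type I interferon receptors, was at 9.47 to 11.8 CPM and at 22.2 to 27.1 CPM. For both, every IFNγ library was above every DMSO library, but the adjusted p of edgeR was 0.03402 for Socs2 and 0.01725 for Usp18, so neither was called, while DESeq2 called both. The other members tested, Socs4 to Socs7, the phosphatases Ptpn1, Ptpn2, Ptpn6 and Ptpn11, and Pias1 and Pias3, had log2 fold changes of -0.73 (Socs5) to 0.56 (Ptpn1) and no call. Cish had 10 counts or fewer in each library and was not tested.

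**Figure D2:**
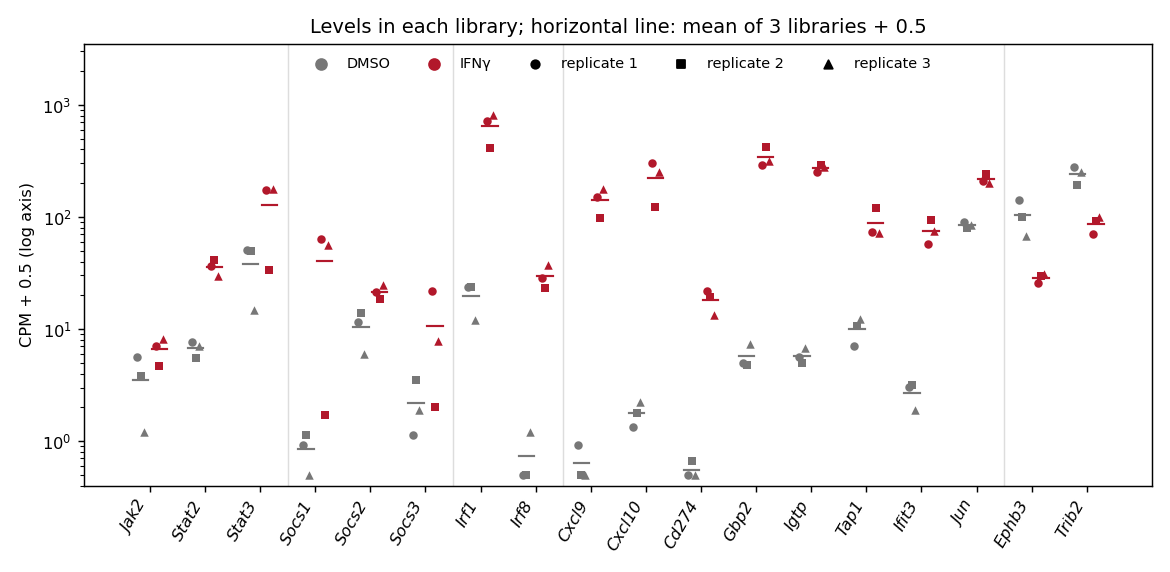
CPM plus 0.5 on a log axis in each DMSO (grey) and IFNγ (red) library for 18 genes, with replicates by marker shape and the mean of the 3 libraries as a line. IFNγ replicate 2 (red square) lies far below the other red points for Stat3 (33.4 CPM), Socs1 (1.19 CPM) and Socs3 (1.49 CPM), and level with or above them for Stat2, Gbp2, Tap1 and Ifit3.

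Of 9 interferon regulatory factors, 7 were tested and 2 were called higher, against 1.2% of all genes tested. Irf1, a factor that STAT dimers induce directly and whose promoter is printed above with its GAS match, was at 23.4, 23.2 and 11.4 CPM in DMSO. With IFNγ it was at 721, 409 and 820.5 CPM, the largest gain of CPM among the genes called. No library of one group came near the other. The log2 fold change was 5.05 ± 0.31 (edgeR adjusted p = 3.519e-08), and it lay between 4.82 and 5.29 whichever single library was left out. Irf8, best known from myeloid cells, had 0, 0 and 2 counts in DMSO and 230, 76 and 208 with IFNγ, and was at least 28.1-fold higher. The fold is a lower bound because DMSO was set to 3 counts in its shallowest library. Irf2 (log2 fold change 1.21) and Irf7 (1.19) were separated upwards but were not called with all libraries, and both were called without the 2 libraries that stand apart. Irf9 had a log2 fold change of 0.60 and Irf3 of -0.06.

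Early regulators and effectors were compared as 2 lists that do not share members. The first holds 32 transcription factors and coactivators of interferon responses, and the second 57 genes of antimicrobial defence, antigen presentation and secretion. Early is a name by role only, since all IFNγ libraries were taken at 2 h and no order in time can be read. Of 30 regulators tested, 10 were called higher and none lower, with a median log2 fold change of 1.05 over those tested. Of 45 effectors tested, 32 were called higher and none lower, and the median was 3.73, or 3.22 with genes near 0 in DMSO at their lower bound. Both shares, 33.3% and 71.1%, are to be read against the 1.2% of all genes tested, and no test was made between the lists. The lists were chosen with earlier results of these data known. Of those tested, 3 regulators and 10 effectors had 3 counts or fewer in each DMSO library, and these entered only by being high in another group. The difference between the shares is therefore a description and is in part set by the choice of members and by the filter.

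The called members also differed in where they started. The called regulators had a median of 6.499 CPM in DMSO and 32.2 CPM with IFNγ. Of these 10, 6 began at 5 CPM or more, and 3 had 3 counts or fewer in each DMSO library. The called effectors had a median of 1.81 CPM in DMSO and 56.2 CPM with IFNγ. Of these 32, 22 began below 5 CPM, 9 of them with 3 counts or fewer in each DMSO library. A start that low was no more frequent among called effectors than among called regulators. Irf1 was the exception among regulators in its level with IFNγ. It rose from a mean of 19.3 CPM to 650 CPM, above every called effector. Without the 2 libraries that stand apart, 13 of 30 regulators and 36 of 46 effectors were called higher, where 196 of all 12135 genes tested were.

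Among the other called regulators, Batf2, a basic leucine zipper factor, had 0 counts in each DMSO library and 69, 35 and 70 with IFNγ, and was at least 10.01-fold higher. Nlrc5, the coactivator of MHC class I genes, had 2, 1 and 0 counts and 66, 11 and 33 counts, and was at least 5.52-fold higher. Ciita, the coactivator of MHC class II genes, was under the count filter, with 0, 2 and 0 counts in DMSO and 8, 7 and 30 with IFNγ. Atf3, a stress-responsive factor, had a log2 fold change of 1.80 ± 0.31, and lost its call without DMSO replicate 1 or DMSO replicate 2. Pml, Nmi and Arid5a were also called, at 1.72, 1.69 and 1.31.

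**Figure D3:**
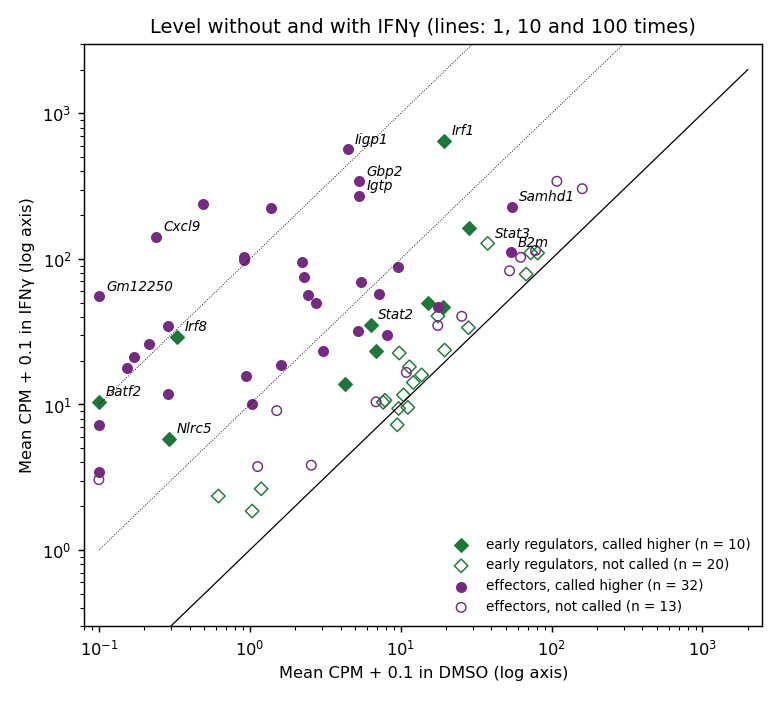
Mean CPM plus 0.1 in DMSO (x axis) and with IFNγ (y axis) on log axes for the 30 regulators (green diamonds) and the 45 effectors (purple circles) tested, filled where called higher, with lines at 1, 10 and 100 times. Most filled circles lie to the left of 5 CPM in DMSO, and Irf1 (19.3 and 650 CPM) has the highest level with IFNγ.

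Both families of interferon-inducible GTPases had a higher median log2 fold change than any other list. They are known to attack the vacuoles of intracellular parasites and bacteria. Of 16 immunity-related GTPases (IRG), 13 were tested and 12 were called higher, with a median log2 fold change of 6.89, and Irgq, a divergent member of the family, had -0.20. Gm12250, which the annotation labels a processed pseudogene, had 0 counts in each DMSO library and 371, 250 and 266 with IFNγ, and was at least 53.6-fold higher. Gm4841 rose from 4, 2 and 0 counts to 2372, 460 and 1610 counts. Iigp1 was at 5.27, 5.05 and 2.76 CPM in DMSO and at 697, 360 and 645 CPM with IFNγ, a log2 fold change of 6.97 ± 0.33.

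Igtp was at 5.06, 4.42 and 6.22 CPM without IFNγ and at 249, 290 and 277 CPM with it (log2 fold change 5.72 ± 0.23), a tight group in which IFNγ replicate 2 was highest. Irgm2, which shares exon bases with Igtp, was at 2.32, 3.00 and 1.04 CPM and at 133, 27.7 and 125 CPM, so in this pair IFNγ replicate 2 was low for one gene only. Ifi47 had 1, 0 and 1 counts and then 405, 48 and 226, and was at least 33.3-fold higher, although it shares exon bases with Olfr56. Tgtp1 and Tgtp2 are near-identical copies with equal counts in DMSO (3, 7 and 2), so their log2 fold changes of 6.89 and 6.82 are not separate measurements.

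All 5 guanylate-binding proteins tested, of 11 listed, were called higher, with a median log2 fold change of 6.08. Gbp2, the member with the most counts, was at 4.43, 4.26 and 6.91 CPM in DMSO and at 292.5, 422 and 313 CPM with IFNγ (log2 fold change 6.08 ± 0.24, edgeR adjusted p = 1.495e-10). Gbp2b had 0 counts in each DMSO library and 74, 15 and 45 with IFNγ, and was at least 6.89-fold higher. Gbp4 was at least 11.3-fold higher, and Gbp7 and Gbp3 had log2 fold changes of 3.73 and 3.03. Of the remaining members Gbp8, Gbp9 and Gbp11 were under the count filter (Gbp9 was tested and called without the 2 libraries that stand apart, edgeR adjusted p = 0.0002794), and Gbp5, Gbp6 and Gbp10 were not analysed here.

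The ligands of CXCR3, which draw T cells and natural killer cells, were all called higher. Of 19 chemokines, 12 were tested, and the 3 called (against 1.2% of all genes tested) were Cxcl9, Cxcl10 and Cxcl11, while the median of those tested was 0.66. Cxcl9 had 2, 0 and 0 counts in DMSO and 1221, 328 and 1014 with IFNγ, and was at least 137-fold higher, the largest of the 21 lower bounds. Cxcl10 was at 0.843, 1.26 and 1.73 CPM and rose to 300, 121 and 250 CPM (log2 fold change 7.48 ± 0.47). Cxcl11, which the annotation labels a polymorphic pseudogene, had 0 counts in DMSO and 28, 12 and 17 with IFNγ, and was at least 3.21-fold higher. Its call was lost when DMSO replicate 1, DMSO replicate 2 or IFNγ replicate 1 was left out (adjusted p up to 0.01479).

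Ccl2 and Cx3cl1, which draw monocytes and CX3CR1-bearing cells, split by library. Ccl2 had 42, 0 and 21 counts with IFNγ and 0 in each DMSO library, and Cx3cl1 had 912, 18 and 610 against 37, 59 and 3. In both, IFNγ replicate 2 was the low library. With all libraries neither was called (edgeR adjusted p = 0.0409 and 0.01237), and without the 2 libraries that stand apart both were (adjusted p = 0.0007976 and 5.421e-10). The other chemokines tested, such as Ccl5 (0.63), Cxcl1 (0.69) and Cxcl12 (-0.49), had no call.

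Of 16 checkpoint and adhesion ligands, 7 were tested and 2 were called higher, against 1.2% of all genes tested. Cd274, which codes for PD-L1, the ligand that restrains T cells through PD-1, had 0, 1 and 0 counts in DMSO and 175, 63 and 74 with IFNγ. Every IFNγ library was far above every DMSO library, and Cd274 was at least 17.1-fold higher. Lgals9 had a log2 fold change of 1.37 ± 0.24. Icosl, Cd276, Pvr and Cd47 had values of 0.11 to 0.47 with no call, and Nectin2 had -0.45. Icam1 had 24, 6 and 21 counts with IFNγ and 0 in each DMSO library, which was under the count filter. Without the 2 libraries that stand apart it was tested and called (edgeR adjusted p = 0.007129). Lgals9 lost its call in 3 of 6 fits with 1 library left out (DMSO replicate 1, DMSO replicate 2 or IFNγ replicate 1).

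The MHC class I pathway was called in part. Of 24 genes, 19 were tested and 7 were called higher, against 1.2% of all genes tested, with a median log2 fold change of 1.10. Tap1, a subunit of the peptide transporter, was at 6.54, 10.1 and 11.8 CPM and rose to 72.3, 120 and 70.8 CPM (3.22 ± 0.26). Psmb9, an immunoproteasome subunit that shares exon bases with Tap1, was at 0.843 to 2.42 CPM and rose to 12.5 to 21.6 CPM (3.72 ± 0.38). Tap2 had a log2 fold change of 4.28 ± 0.84 that rested on IFNγ replicate 1, with 238 counts there against 33 and 44. Without that library it was 3.41, and it lost its call in 4 of 6 fits with 1 library left out.

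The chains of the class I molecule itself had smaller values. B2m, the light chain of class I molecules, was at 54.4, 64.0 and 42.5 CPM and rose to 125, 75.1 and 133 CPM (log2 fold change 1.05 ± 0.21). The heavy chains H2-K1 and H2-D1 had log2 fold changes of 0.55 ± 0.35 and 0.71 ± 0.39 and no call. In both groups their raw counts were lowest in the libraries that stand apart, which were also the shallowest of their groups. The chaperones Calr, Canx and Pdia3 lay between -0.18 and 0.02. Of 12 class II genes, 3 were tested and none was called, and Cd74, H2-Aa, H2-Ab1 and H2-Eb1 had 4 counts or fewer in each library.

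**Figure D4:**
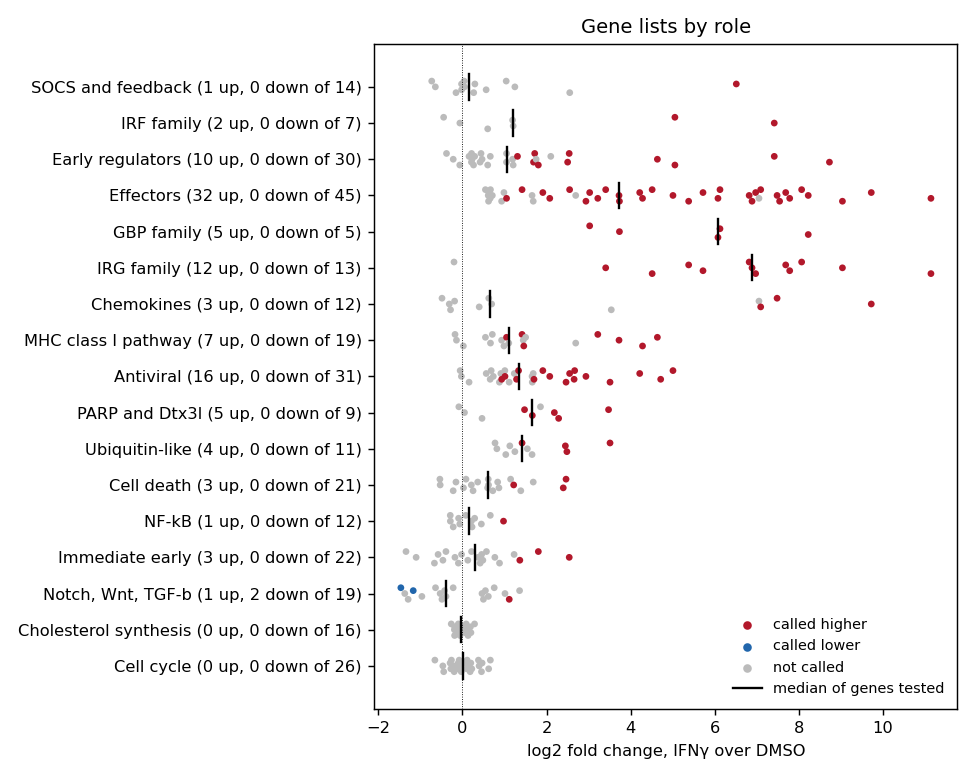
Log2 fold change, IFNγ over DMSO, of the genes tested in 17 lists, red where called higher, blue where called lower and grey where not called, with the median of each list as a black line. The IRG and GBP families have medians of 6.89 and 6.08, effectors 3.73, early regulators 1.05 and cholesterol synthesis -0.04.

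Antiviral genes that type I interferon also induces were called in 16 of 31 tested, against 1.2% of all genes tested, with a median log2 fold change of 1.33 and none lower. Ifit3, which binds foreign RNA with its family, was at 2.53, 2.68 and 1.38 CPM and rose to 57.4, 93.0 and 74.8 CPM (5.01 ± 0.43). Ifit1 was at 1.90 to 3.11 CPM and rose to 48.3 to 51.9 CPM (4.22 ± 0.22). The IFNγ libraries of Ifit1 lay closer together than those of Ifit3. Samhd1, which degrades nucleotides, was at 42.2 to 67.7 CPM and rose to 199 to 250 CPM (2.08 ± 0.18). Isg15, the ubiquitin-like modifier, had a log2 fold change of 1.66 ± 0.38 was not called with all libraries (adjusted p = 0.03378) and was called without the 2 libraries that stand apart (edgeR adjusted p = 0.009438).

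ADP-ribosylating enzymes and ubiquitin-like conjugation genes rose in part. Of 9 genes of the first list tested, 5 were called higher, against 1.2% of all genes tested. Parp14 was at 9.68 to 11.4 CPM in DMSO and at 99.5 to 142 CPM with IFNγ (3.47 ± 0.20), Dtx3l had 2.29 ± 0.24, and Parp10, Parp12 and Parp3 had 2.19, 1.66 and 1.48. Without DMSO replicate 1, among others, Parp12 and Parp3 were not called. Parp1 and Parp2, the DNA damage enzymes, had 0.05 and -0.09. Of 11 conjugation genes tested 4 were called, also against 1.2%, led by Trim21, an antibody receptor with ubiquitin ligase activity, at 3.51 ± 0.30. Without the 2 libraries that stand apart, 6 of 11 conjugation genes were called.

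The lists of cell death, metabolism, NF-kB and immediate early genes held 1 to 3 calls each, to be read against the 1.2% of all genes tested. Some of these calls were counted above, as Xaf1, Cmpk2 and Samhd1 are also in the antiviral list and Atf3 is also a regulator. Cell death genes were called in 3 of 21 tested, namely Xaf1, Tnfsf10 (the ligand TRAIL) and Ripk1, at 2.46, 2.40 and 1.22, and the metabolic list in 3 of 10. Cmpk2, Samhd1 and Wars were the 3, with Wars, a tryptophan tRNA ligase, at 0.80 ± 0.14, while Ido1 and Nos2 were at 0 counts in all 6 libraries. Of the NF-kB subunits and targets, 1 of 12 tested was called, Csf1 at 0.98 ± 0.18. Wars lost its call in 4 of 6 fits with 1 library left out (all but DMSO replicate 3 and IFNγ replicate 2) and Csf1 in 3 (DMSO replicate 1, DMSO replicate 2 or IFNγ replicate 1). Without both libraries that stand apart, 4 of 21 cell death genes and 4 of 10 of the metabolic list were called. Of 22 immediate early genes tested, the 3 called were Csrnp1 (2.54), Atf3 (1.80) and Jun (1.36). Jun, a subunit of AP-1, rose from a mean of 84.5 CPM to 217.5 CPM and had an SE of 0.13. Fos and Egr1, which serum and growth factors induce, had -1.34 and -0.67 with no call.

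No gene was called among 26 of the cell cycle, 16 of cholesterol synthesis, 14 reference genes, 31 encoded by mitochondria and 87 cytosolic ribosomal proteins, whose median log2 fold changes lay between -0.04 and 0.08. Ccnd1, a cyclin of the early cycle, had -0.66 ± 0.14 with no call, and was called lower without the 2 libraries that stand apart (-0.70 ± 0.12).

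As a group, the 12 genes lower with IFNγ started from higher levels than those called higher. A mean over 50 CPM in DMSO was found in 6 of the 12, against 6 of the 144 called higher and 2837 of the 11964 genes tested. A fall can be called only from enough DMSO counts, whereas a rise can be called from near 0. The contrast is therefore in part set by the test. Ephb3, a receptor tyrosine kinase for ephrin-B ligands, was at 141, 99.6 and 67.4 CPM in DMSO and at 24.95, 29.5 and 30.3 CPM with IFNγ. Its groups did not overlap, and the log2 fold change was -1.87 ± 0.23 (edgeR adjusted p = 9.058e-05). It was the 1 gene called of 14 Eph receptors and ephrins tested, where 0.1% of all genes tested were called lower. Trib2, a pseudokinase of the Tribbles family, was at 276, 194 and 249 CPM and fell to 70.1, 91.2 and 99.3 CPM (-1.47 ± 0.21). Its paralogue Trib3 moved the other way, from 57.4 to 92.5 CPM up to 142 to 194 CPM (1.11 ± 0.21). The call of Trib3 was lost with total-count scaling, with the replicate block and in 4 of 6 fits with 1 library left out (all but DMSO replicate 1 and IFNγ replicate 2).

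Tsc22d1, a transcription factor induced by TGF-β, had a log2 fold change of -1.17 ± 0.21. Kcnn4, a calcium-activated potassium channel, was at 70.8 to 97.0 CPM and fell to 35.2 to 38.1 CPM (-1.16 ± 0.16). Wnt7b, a secreted Wnt ligand, had -0.90 ± 0.17, and Timp3, an inhibitor of matrix metalloproteinases, had -0.63 ± 0.12 from 894 to 1057 CPM in DMSO. Ddit4l, Shox2, Pik3r3 and Utp14b had values of -1.06 to -0.99. The 2 largest falls, Gm28730 (-2.43) and Slc43a2 (-2.39), were of genes with few counts, at most 44 in any library. Of the 12, 3 (Ephb3, Trib2 and Kcnn4) were called in each of the 6 fits with 1 library left out, against 86 of the 144 higher. Timp3 lost its call in all 6 of these fits. Wnt7b, Ddit4l, Shox2, Pik3r3 and Utp14b lost theirs in 5 of 6, and Tsc22d1 in 4 of 6.

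The increases were also divided by the level before IFNγ. A gene with few counts needs a larger fold to be called, and one with 3 counts or fewer in each DMSO library entered the test only by being high in another group, so the order of the classes below is a description and is in part set by the test. Of the 144 genes called higher, 21 had 3 counts or fewer in each DMSO library, 56 more had a mean under 5 CPM, 61 had 5 to 50 CPM, and 6 had over 50 CPM. The median log2 fold changes of these classes were 7.09 (3.10 at the lower bounds), 2.84, 1.55 and 1.24. In the class over 50 CPM the largest was that of Dtx3l at 2.29, and in the class of 5 to 50 CPM only 3 of the 61 exceeded 5. Those 3 were Gbp2, Igtp and Irf1, which were chosen after their values were seen. With the level read from DMSO replicate 1 and the fold from the other 5 libraries, the medians were 4.27, 2.54, 1.55 and 1.29, in the same order.

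Of all genes tested, 2709 lay under 5 CPM, 6385 at 5 to 50 CPM and 2837 over 50 CPM in DMSO, of which 2.07%, 0.955% and 0.212% were called higher. The share called is not given for genes with 3 counts or fewer in each DMSO library, because of the way they entered the test. By amount, the median gain per gene was 8.80 CPM for the genes near 0, 11.99 CPM under 5 CPM, 28.6 CPM at 5 to 50 CPM and 109.8 CPM over 50 CPM. In sum, with unequal numbers of genes, those at 5 to 50 CPM gave 52.0% of the CPM gained, those under 5 CPM 31.5%, the 21 near 0 gave 6.11% and the 6 over 50 CPM 10.4%.

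The promoter windows were searched for 5 motifs on both strands, and 110 of the 144 genes called higher, 10 of the 12 lower and 8430 of the 11964 tested had a window. The ISRE core was in 46 (41.8%) of the promoters of genes called higher and in 6.98% of all promoters of genes tested. The GAS letters were in 21 (19.1%), against 6.75%. Both were in 10 promoters (9.09%, against 0.676%), either in 57 (51.8%, against 13.1%), and 53 had neither. Of the genes lower with IFNγ, 1 of 10 had the ISRE core and 2 of 10 the GAS letters. Without the 2 libraries that stand apart, 145 of the 196 genes called higher had a window. The ISRE core was then in 52 (35.9%) and the GAS letters in 25 (17.2%).

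The ISRE core was more frequent among the larger increases, whose windows also had fewer CpG (median 5, against 17 for log2 fold changes up to 2). It was in 53.7% of 67 promoters of genes with a log2 fold change over 2 and in 23.3% of 43 promoters of the other genes called higher, whereas the GAS letters were in 19.4% and 18.6%. The 36 genes with an ISRE core and no GAS match had a median log2 fold change of 2.84, the 11 with GAS only 1.92, the 10 with both 5.55 and the 53 with neither 1.90. Of the 10 with both, Gm12250, Tgtp1, Tgtp2, Igtp and Irgm2 are IRG genes, and Gm12185 shares exon bases with Tgtp1. The matches of Tgtp1, Tgtp2 and Gm12185 lie at nearly the same places. The promoters of such paralogues are not separate, so these medians and shares are a description of the genes called. Of 25 called effectors with a window, 17 had the ISRE core and 8 the GAS letters, and of 7 called regulators 1 and 2. Of 63 ISRE cores in promoters of genes called higher, 42 began within 150 bases before the gene start (66.7%), against 46.5% of 654 such matches in all promoters of genes tested.

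The windows of genes called higher also differed in base composition, which can change how often any motif occurs. Their median CpG count was 9.5 and their median GC content 53.2%, against 22 and 61.7% for all genes tested, and for the called effectors the CpG median was 4. Among promoters with 10 CpG or fewer the ISRE core was in 59.3% of 59 genes called higher and in 11.9% of 1206 genes tested, and among those with more than 10 in 21.6% of 51 and 6.15% of 7224. The AP-1 letters TGANTCA were in 18 promoters of genes called higher (16.4%, against 4.32%), all 18 of genes with a log2 fold change over 2. The NF-kB core GGANTTTCC was in 6.36% (against 1.22%), and the GC box GGGCGG in 46.4% (against 67.9%). Within the CpG classes the GC box was in 20.3% against 24.3% of genes tested with 10 CpG or fewer and in 76.5% against 75.2% with more. The AP-1 letters were in 23.7% against 9.62% and in 7.84% against 3.43%. An ISRE core and a GAS match may share bases, and no overlap with the AP-1 letters was removed.

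**Figure D5:**
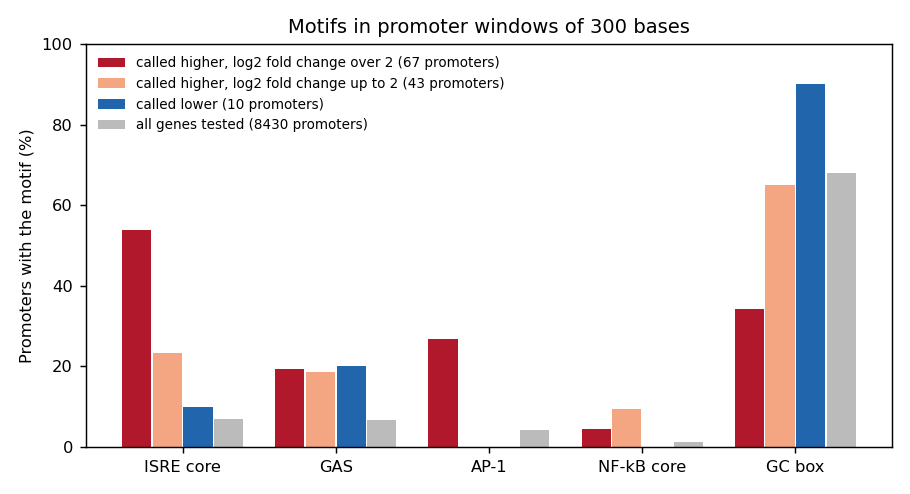
Percent of promoter windows that hold each motif on either strand, for genes called higher with a log2 fold change over 2 (67 windows), other genes called higher (43), genes called lower (10) and all genes tested (8430). The ISRE core bars stand at 53.7%, 23.3%, 10% and 6.98%.

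Genes called higher lay near each other in the genome. Of the 144, 57 (39.6%) had their start within 100000 bases of the start of another gene called higher, against 2.38% of the genes tested with a position. Leaving out 16 genes that share exon bases with another gene called higher, 39 of 128 (30.5%) did, and within 50000 bases 34.0% of the 144 did. Among the genes called higher without the 2 libraries that stand apart, 62 of 190 with a position (32.6%) did. None of the 12 lower lay within 100000 bases of another gene called in either direction. The 57 genes formed 19 groups, 10 of them with 3 or more genes.

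These groups hold the families described above, and many of their members are paralogues that can share reads. On GRCm38 chromosome 19, from 34550694 to 34650009, all 5 genes tested were called, and these were Ifit2, Ifit3, Ifit1bl1, Ifit3b and Ifit1. On chromosome 3, from 142530342 to 142638008, all 4 tested were, namely Gbp7, Gbp3, Gbp2b and Gbp2. On chromosome 1, from 173849126 to 174031810, all 5 tested were called, the DNA sensors of the Ifi200 family Ifi211, Mndal, Ifi203, Ifi202b and Ifi205. On chromosome 5, from 92321347 to 92365485, Cxcl9, Cxcl10 and Cxcl11 stood together, and on chromosome 17, from 34181987 to 34216321, Tap1, Psmb9 and Tap2 were 3 of 4 genes tested.

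The library that stands apart among those with IFNγ was lower in sum. The summed level of the 144 genes was 8549, 7476 and 8771 CPM in IFNγ replicates 1, 2 and 3. IFNγ replicate 2 was the lowest of its group for 72 of the 144 (50%), against 46.0% of all genes tested, and was under 50% of the next lowest for 15 (10.4%), against 18.4% of all genes tested. The cause of its low counts for Stat3, Socs1, Socs3, Ccl2 and Cx3cl1 was not tested. Calls gained without both libraries, other than those named, included Psmb8 (3.00 ± 0.56), Parp9 (1.72 ± 0.21) and Lmo4 (1.52 ± 0.16) among the genes higher, and Klf4 (-1.42 ± 0.23) and Trp63 (-1.42 ± 0.22), both transcription factors, among those lower. These 5 were chosen after their values were seen.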

How the data were processed

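The authors trimmed reads with cutadapt 1.7, aligned them to GRCm38 with HISAT2 2.1.0 and counted them on exons with featureCounts, a read over several genes being counted for each and no strand option being set. The deposited values are raw counts of 43629 genes, of which 97.5% were found in the GENCODE vM21 annotation. The annotation release behind the counts is not given in the sources used here.

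Genes were kept by filterByExpr with the group, and 1 model with a mean per group was fitted to all 18 libraries with edgeR 4.0.16 (TMM factors, quasi-likelihood test, Benjamini-Hochberg) in R 4.3.3. The threshold for a call was an adjusted p of 0.01. CPM use TMM-scaled depths, and log2 CPM a prior count of 2. An SE is the unshrunk log2 coefficient over the square root of F. Where each DMSO library had 3 counts or fewer, the fold is a lower bound against 3 counts in the shallowest DMSO library. The error covers the spread between libraries only. On simulated data with 11606 unchanged genes, 45 of 53 genes raised by 2 on the log2 scale, 8 of 47 raised by 1, 31 of 58 lowered by 2 and 8 of 40 lowered by 1 were called, with 0 false calls. The simulated libraries were independent, shared 1 spread per gene and held none that stands apart. They therefore do not measure the rate of false calls in the real libraries.

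Promoters are those of RefSeq, joined by gene ID or symbol, with the start nearest to the gene model's where there were several. Named were the 12 largest increases and all decreases among called genes with at least 50 counts in the higher group and separated libraries, up to 5 called members of each list, receptor, JAK, STAT and feedback genes, the 5 largest gains of CPM, the printed promoters and the 3 called genes of highest DMSO level; others are examples of their list or are marked. Some genes that the rule takes are not reported here. Members and lists were chosen with earlier results of these data known. Alternatives were DESeq2 1.42.0, limma-voom (limma 3.58.1), other scalings and filters, 2 surrogate variables (sva 3.50.0), a replicate block, and libraries left out. The other 12 libraries entered the filter, the scaling and the fit.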

Additional observations from a re-analysis of the deposited data

How the results depend on the processing

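All 144 genes called higher and all 12 called lower kept their direction in each of the 19 other fits in which they were tested. The number of genes higher was 328 with 2 surrogate variables, 71 with at least 10 counts required in every library compared (of 9153 genes tested) and 19 with only the 6 libraries compared, and lay between 119 and 196 in the other fits of all its libraries or without both libraries that stand apart. The number lower was 92 with 2 surrogate variables, 6 without a filter, 0 with only the 6 libraries compared (114 at an unadjusted p under 0.05), 50 without both libraries that stand apart, 31 with DESeq2, 48 with voom quality weights and 28 at an adjusted p under 0.05. Leaving out 1 library gave 101 to 166 genes higher and 3 to 24 lower, with the extremes without DMSO replicate 2 (101) and without IFNγ replicate 2 (166 and 24). Without IFNγ replicate 1 or IFNγ replicate 3, 3 were lower, and without DMSO replicate 1, 4 were. The 86 named genes gave 1436 values on the same side of the threshold under these fits, 152 that lost a call and 11 that gained one, and no called value changed sign. The replicate numbers did not pair the libraries (correlations of same-numbered libraries 0.367, -0.804 and -0.695), and with the number as a replicate block 119 genes were higher and 6 lower. With a longer ISRE core the share of promoters was 37.3% for genes called higher against 3.06% of all tested, and with the stricter GAS letters 7.27% against 1.25%. Depth limits what could be called at low counts, since 3 counts were up to 1.04 CPM.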
